A study of Homo sapiens with 12 samples.

Results

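The MHC class I antigen presentation pathway was followed through 9 of its genes in TPC1 cells and in 3 clones derived from them. The genes, chosen by name, were the heavy chains HLA-B, HLA-C and HLA-E, the light chain B2M, the peptide transporter subunits TAP1 and TAP2, the loading factor TAPBP and the proteasome subunits PSMB8 and PSMB9. They are 9 of the 58302 genes in the table. TPC1 is a papillary thyroid carcinoma cell line, used here without editing, and the clones D11, WB1 and TD5 are Dicer1 (+/−) lines made from it with a transiently transfected CRISPR/Cas9 plasmid and a guide RNA against Dicer1. All 4 lines grew in the same serum-containing RPMI medium, and the labels name no immune stimulus. Each line gave 3 RNA-seq libraries, 12 in all. Each Dicer1 (+/−) line is a single clone, so a feature of the clone and an effect of the allele cannot be told apart. The labels do not say that the 3 libraries of a line came from separate cultures, so p-values measure the spread between these libraries, which may be technical.

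MHC class I molecules display peptides from inside the cell to CD8 T cells. The proteasome cuts proteins into peptides, the heterodimer of TAP1 and TAP2 carries them into the endoplasmic reticulum, and tapasin, the product of TAPBP, keeps the transporter beside an empty heavy chain bound to B2M until a peptide is loaded. Interferon gamma raises the pathway through IRF1, NLRC5 drives the class I promoters, and carcinomas, those of the thyroid included, often have lowered class I levels.

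The promoters of HLA-B, HLA-C, B2M, TAP1 and TAP2 are shown first, because these partners within shared complexes differed in the direction or size of their changes. Each window holds 250 bases before and 50 bases after the gene start in RefSeq (GRCh38.p14), printed 5′ to 3′ on the strand of the gene. Capitals mark the letters of GAAANNGAA or GAANNGAAA on either strand, which are partial matches to the interferon-stimulated response element. Windows were given for 8 of the 9 members, and HLA-E is named only.
HLA-B, chr6:31357130-31357429, minus strand: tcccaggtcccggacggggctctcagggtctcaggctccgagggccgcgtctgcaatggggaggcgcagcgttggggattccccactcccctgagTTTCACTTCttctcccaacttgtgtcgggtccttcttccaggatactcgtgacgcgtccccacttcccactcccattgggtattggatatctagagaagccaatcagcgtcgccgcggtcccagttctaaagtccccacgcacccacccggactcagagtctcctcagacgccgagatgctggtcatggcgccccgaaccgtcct
HLA-C, chr6:31272043-31272342, minus strand: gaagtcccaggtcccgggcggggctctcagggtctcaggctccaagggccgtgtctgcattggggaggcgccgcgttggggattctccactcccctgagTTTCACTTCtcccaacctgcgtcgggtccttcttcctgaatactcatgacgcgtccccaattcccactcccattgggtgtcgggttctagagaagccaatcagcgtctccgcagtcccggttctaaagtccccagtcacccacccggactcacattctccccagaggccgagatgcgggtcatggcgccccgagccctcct
B2M, chr15:44711267-44711566, plus strand: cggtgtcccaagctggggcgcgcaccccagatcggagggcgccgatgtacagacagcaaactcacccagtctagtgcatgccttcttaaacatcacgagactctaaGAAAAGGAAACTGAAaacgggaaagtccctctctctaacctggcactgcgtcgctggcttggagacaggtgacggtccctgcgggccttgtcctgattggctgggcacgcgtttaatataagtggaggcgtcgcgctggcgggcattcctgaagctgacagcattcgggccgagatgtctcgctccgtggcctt
TAP1, chr6:32853655-32853954, minus strand: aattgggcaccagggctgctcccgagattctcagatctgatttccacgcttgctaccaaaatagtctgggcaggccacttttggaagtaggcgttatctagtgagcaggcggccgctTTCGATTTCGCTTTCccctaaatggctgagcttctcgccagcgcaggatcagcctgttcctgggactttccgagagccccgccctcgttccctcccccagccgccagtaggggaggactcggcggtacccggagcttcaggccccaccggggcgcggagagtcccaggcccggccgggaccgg
TAP2, chr6:32838690-32838989, minus strand: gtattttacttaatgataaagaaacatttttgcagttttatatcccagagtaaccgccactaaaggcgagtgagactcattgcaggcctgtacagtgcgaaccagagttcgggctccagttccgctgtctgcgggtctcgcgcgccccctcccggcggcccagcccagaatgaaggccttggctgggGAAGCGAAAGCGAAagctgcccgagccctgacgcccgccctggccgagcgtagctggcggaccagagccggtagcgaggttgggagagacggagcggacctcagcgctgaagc
The 8 members had 10 windows, since TAP1 and PSMB8 had 2 each, and 7 of the 10 held at least 1 of these motifs. These were the windows of HLA-B, HLA-C, B2M, TAP2 and TAPBP, the printed window of TAP1 and 1 of those of PSMB8, and PSMB9 had none. Of all 35116 promoter windows of this length, 14.5% held either motif, 8.11% GAAANNGAA and 7.66% GAANNGAAA. In B2M, TAP1 and TAP2 neighbouring matches overlapped each other, whereas HLA-B and HLA-C had a single match that began at −155 and −151 from the gene start. The letters TGACG, the core of the X2 box, were found on either strand in HLA-B, HLA-C, B2M, TAP2, PSMB8 and PSMB9 and in 24.6% of all windows. The letters CCAAT, the core of the Y box, were found on either strand in HLA-B, HLA-C, B2M, TAP1 and PSMB9 and in 34.6% of all windows. The NF-kB consensus was found in HLA-B, HLA-C, B2M, TAP1 and TAPBP and in 11.3% of all windows. These are matches of letters, and binding to the promoters was not measured. The motifs were chosen after the windows were read, so the counts describe these windows and do not test an excess over all windows.

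The deposited values are reads per gene that the authors scaled to 20000000 per library, called scaled reads here. They were divided by the library sum and tested as log2(value per 1000000 + 1) with limma over all 12 libraries. A gene was tested if it reached 1 per 1000000 in at least 3 libraries, which 16027 genes did, all 9 members among them. It was called if its Benjamini-Hochberg adjusted p was under 0.05 and its change at least 1.5-fold. The reads behind the values, estimated from whole numbers that do not occur in a library, came to 12600000 to 17300000 in 11 libraries and to at least 20000000 in TPC1 replicate 1, and 3 reads corresponded to 3.00 to 4.76 scaled reads, a floor for counting error only. As a check of the labels, DICER1 was at 1101 to 1360 scaled reads in TPC1. It was at 977 to 1093 in D11, 815 to 939 in WB1 and 627 to 809 in TD5. By limma, TD5 alone was called (−0.77 on the log2 scale, adjusted p 9.02e-05). WB1 passed the adjusted threshold (0.00404) at −0.43, under 1.5-fold. D11 lay below TPC1 without overlap, but its −0.19 did not pass (adjusted p 0.138). DICER1 thus does not separate D11 from TPC1 by this test. Of 13 thyroid and epithelial markers, PAX8, KRT8 and KRT18 were abundant, but TSHR and NKX2-1 were listed at 0 in all 12 libraries and EPCAM reached at most 5 scaled reads. Of the 7 tested, 1 was higher and 3 lower at an adjusted p under 0.05 in each clone. The 3 lower ones were FOXE1, a thyroid transcription factor (−0.95, −1.06 and −1.20 on the log2 scale in D11, WB1 and TD5), and the keratins KRT8 (−0.26, −0.24 and −0.43) and KRT18 (−0.47, −0.44 and −0.23). The higher one was HHEX in D11 (0.39, adjusted p 0.0161) and PAX8 in WB1 (0.26, adjusted p 0.0112) and TD5 (0.27, adjusted p 0.0197). Of 5 fibroblast and endothelial markers 2 were tested, and the 5 together summed to 189 to 289 scaled reads in TPC1, 167 to 210 in D11, 96 to 150 in WB1 and 187 to 223 in TD5. PDGFRB, a growth factor receptor of mesenchymal cells, was at 192, 112 and 177 scaled reads in TPC1 and at 37, 56 and 48 in WB1, with a log2 fold change of −1.41 (adjusted p 2.21e-05). PDGFRB was also lower in D11 (−0.46, adjusted p 0.0416) and the collagen gene COL1A1 in TD5 (−0.51, adjusted p 0.0455), both under 1.5-fold. PDGFRB in TD5 and COL1A1 in D11 and WB1 did not pass the adjusted threshold. The part of these markers in the results was not tested. Of 6 immune cell markers none exceeded 6 scaled reads in any library, and the 6 together summed to 2 to 11. In these libraries a lower value can come from fewer cells that express a gene or from less RNA per cell, which cannot be told apart.

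Across the 27 combinations of a member and a clone, 1 change against TPC1 was called, the drop of TAP2 in TD5. In D11 and WB1 none of the 9 members was called by limma, with 5 and 4 members at an unadjusted p under 0.05. Of all tested genes 4.84% were called in D11, 4.99% in WB1 and 2.6% in TD5. The other 26 combinations had log2 fold changes between −0.29 and 0.37, and their 95% intervals ran from −0.43 to 0.66. The median log2 fold change of the members was −0.15 in D11, 0.03 in WB1 and −0.03 in TD5, against medians of 0.05, 0.06 and 0.00 over all tested genes.

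**Figure D1:**
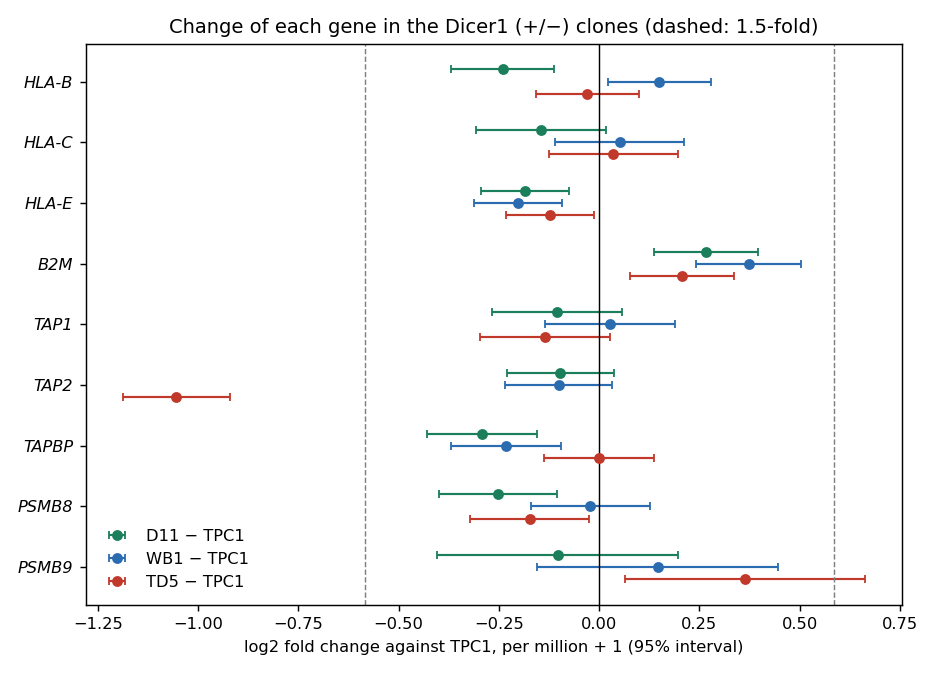
Log2 fold change of each member against TPC1 (x axis, from values per 1000000 + 1) in the 3 Dicer1 (+/−) clones (colours), with 95% intervals from limma and dashed lines at 1.5-fold. TAP2 in TD5, at −1.05, stands alone beyond the dashed lines, and B2M lies above 0 in all 3 clones.

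With no minimum fold change, 10 of the 27 combinations passed an adjusted p of 0.05. In D11, 1 member was higher and 4 were lower, in a comparison where 19.9% of all tested genes were higher and 13.4% lower at that threshold. In WB1, 1 was higher and 2 were lower, against 18.6% and 12.3% of all genes. In TD5, 1 was higher and 1 was lower, against 5.32% and 6.57%. In a moderated F-test among the 4 lines, 6 of the 9 members had an adjusted p under 0.05 (HLA-B, HLA-E, B2M, TAP2, TAPBP and PSMB8), as did 44.6% of all tested genes. The F-test adjusted p was 0.124 for HLA-C, 0.202 for TAP1 and 0.0526 for PSMB9. The libraries of a clone and of TPC1 did not overlap for 6 members in D11, 4 in WB1 and 5 in TD5, against 50.6%, 45.3% and 26.5% of all tested genes.

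**Figure D2:**
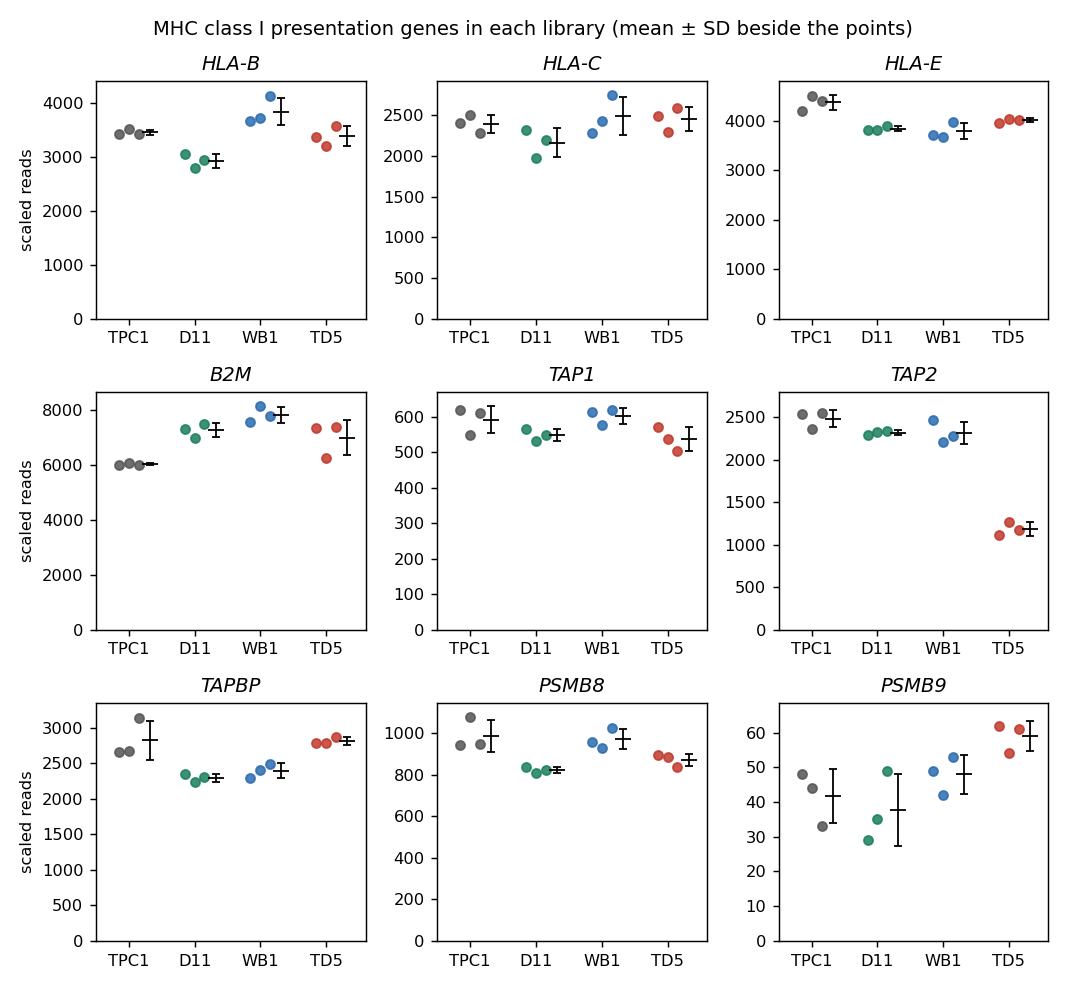
Scaled reads (y axis, from 0) of the 9 members in each of the 3 libraries of TPC1, D11, WB1 and TD5 (points), with the mean ± SD of each line beside them (n = 3). The 3 TD5 libraries of TAP2 sit between 1114 and 1270, below the lowest of the other 9 libraries at 2213.

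TAP2 (ENSG00000204267, chr6:32821833-32838739, minus strand, 12 exons in its MANE transcript) encodes the second subunit of the peptide transporter. It was at 2535, 2365 and 2553 scaled reads in TPC1, at 2289, 2332 and 2341 in D11, at 2462, 2213 and 2276 in WB1 and at 1114, 1270 and 1177 in TD5. TD5 was lower than each other line, with no overlap, and its mean was 47.8% of that of TPC1. The log2 fold change in TD5 was −1.05 with an SE of 0.06 and an adjusted p of 1.08e-08 (limma), a 2.08-fold decrease. In D11 and WB1 the log2 fold changes were −0.10 and −0.10, with adjusted p-values of 0.246 and 0.235. The TD5 value stayed between −1.10 and −1.01 in 21 alternative fits and passed the threshold in all 21.

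TAP1 (ENSG00000168394, chr6:32845209-32853816, minus strand), the partner subunit, did not show this drop. It was at 618, 547 and 610 scaled reads in TPC1, at 566, 530 and 549 in D11, at 612, 576 and 619 in WB1 and at 571, 537 and 502 in TD5. The TD5 libraries overlapped with those of TPC1, and the log2 fold change was −0.14 with an SE of 0.08 and an adjusted p of 0.274. Within each library, the ratio of TAP2 to TAP1 scaled reads was 4.20 ± 0.11 in TPC1, 4.24 ± 0.18 in D11, 3.85 ± 0.17 in WB1 but 2.22 ± 0.23 in TD5 (mean ± SD, n = 3). Every TD5 library, at 1.95 to 2.36, lay below the lowest ratio elsewhere, 3.68. Per kb of the MANE transcript, TAP2 was at 22.0 ± 0.92 per 1000000 and TAP1 at 11.0 ± 0.72 in TPC1, while in TD5 the levels were 10.5 ± 0.69 and 9.99 ± 0.64, within their spread of each other.

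Another gene model overlaps with TAP2. AL669918.1 (ENSG00000250264, chr6:32813767-32838822, minus strand) is a readthrough of TAP2 and HLA-DOB, and 2023 of its 2705 exon bases lie in TAP2 exons and 599 in HLA-DOB exons. It was at 1588, 1482 and 1653 scaled reads in TPC1, at 1348, 1343 and 1339 in D11, at 1441, 1329 and 1363 in WB1 and at 660, 777 and 715 in TD5. In TD5 its log2 fold change was −1.11 with an adjusted p of 1.64e-08, and it was −0.22 in D11 with an adjusted p of 0.0207 and −0.19 in WB1 with an adjusted p of 0.0466. Its values followed TAP2 at a ratio of 0.57 to 0.65 in every library. HLA-DOB itself had 3 to 14 scaled reads in any library. How the counting divided reads between these overlapping models was not given in the sources used here, so the level of TAP2 is uncertain. The drop was present in both models, but they share most exon bases of AL669918.1, so the second is not a separate observation of it.

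The drop was also set against the genes around TAP2. Within 500 kb of its start, 21 other genes were tested, all at higher coordinates. None of the 21 was called in TD5 by limma. There were 6 with an unadjusted p under 0.05, and 1, the zinc transporter gene SLC39A7, passed the adjusted threshold with no minimum fold (log2 fold change −0.22, adjusted p 0.0136). Their log2 fold changes ran from −0.22 to 0.45 with a median of −0.05. All starts here are the outer gene bounds in GENCODE. The nearest by these, PSMB8-AS1, PSMB9 and PSMB8, start between 5.34 and 5.94 kb from the TAP2 start. They had log2 fold changes of −0.13, 0.36 and −0.17. The RefSeq promoter window of PSMB9, chr6:32853942-32854241, lies farther from TAP2, so PSMB9 is among the nearest by its GENCODE start only.

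**Figure D3:**
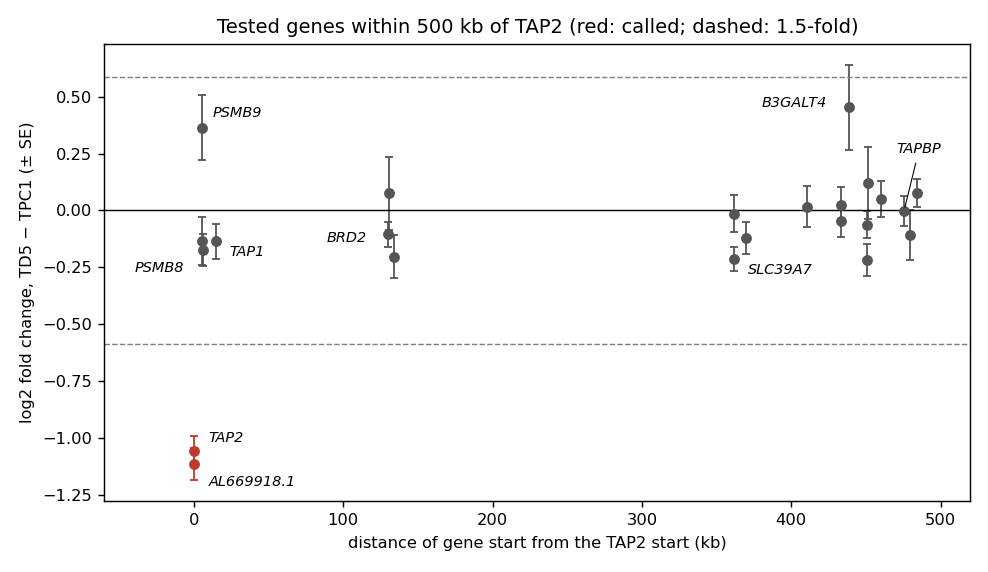
Log2 fold change of TD5 against TPC1 (y axis, ± SE from limma) of the tested genes within 500 kb of TAP2, by the distance of their start from that of TAP2 (x axis, kb). Starts are the outer gene bounds in GENCODE. TAP2 and the overlapping model AL669918.1 (red, called) lie at −1.05 and −1.11, and the 21 others between −0.22 and 0.45.

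B2M (ENSG00000166710, chr15:44711358-44718851, plus strand) encodes the light chain shared by all class I molecules, and it lies outside the MHC. It was the member that was higher in all 3 clones. B2M was at 6018, 6084 and 6004 scaled reads in TPC1, at 7315, 6998 and 7488 in D11, at 7559, 8133 and 7780 in WB1 and at 7342, 6250 and 7376 in TD5. All 9 clone libraries lay above the 3 of TPC1, with TD5 replicate 2 the closest. The log2 fold change was 0.27 ± 0.06 (SE) in D11, 0.37 ± 0.06 in WB1 and 0.21 ± 0.06 in TD5, with adjusted p-values of 0.00455, 0.000425 and 0.0377, and all 3 were under 1.5-fold.

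The rise of B2M depended on the processing. GC content was taken from the longest annotated transcript of each gene, which need not be the one expressed. That of B2M was the lowest of the members, 38.9%, against a median of 48.1% over the tested genes and 62.7% for HLA-C. After each library was corrected for GC content, the log2 fold change of B2M was 0.04 in D11 (adjusted p 0.647), 0.17 in WB1 (adjusted p 0.0437) and, for TD5, 0.17 (adjusted p 0.0542). With a replicate block beside that correction, the adjusted p was 0.0631 in WB1, and none of the 3 clones passed. In TD5, the change failed the adjusted threshold in 13 of 21 alternatives. With a replicate block its adjusted p was 0.0576, and it was 0.0504 to 0.146 when TPC1 replicate 1, 2 or 3, D11 replicate 1 or 3, or TD5 replicate 1 or 3 was left out.

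The heavy chain genes had no common direction. HLA-B (ENSG00000234745, chr6:31353872-31367067, minus strand), a classical heavy chain, was at 3430, 3511 and 3423 scaled reads in TPC1, at 3044, 2786 and 2940 in D11, at 3667, 3723 and 4128 in WB1 and at 3376, 3209 and 3575 in TD5. D11 lay below TPC1 and WB1 above it without overlap, while TD5 overlapped with TPC1. The log2 fold change was −0.24 ± 0.06 (SE) in D11 with an adjusted p of 0.00743, 0.15 in WB1 with an adjusted p of 0.0716, and −0.03 in TD5 with an adjusted p of 0.805.

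HLA-C (ENSG00000204525, chr6:31268749-31272130, minus strand), the other classical heavy chain of the set, was at 2400, 2502 and 2279 scaled reads in TPC1, at 2322, 1973 and 2200 in D11, at 2283, 2432 and 2743 in WB1 and at 2492, 2289 and 2584 in TD5. Every clone overlapped with TPC1, and the 95% intervals of the log2 fold changes were −0.31 to 0.02 in D11, −0.11 to 0.21 in WB1 and −0.13 to 0.20 in TD5. HLA-E (ENSG00000204592, chr6:30489509-30494194, plus strand) encodes a non-classical heavy chain that shows leader peptides of other class I chains to NK cells. It was at 4192, 4503 and 4401 scaled reads in TPC1, at 3807, 3807 and 3897 in D11, at 3716, 3675 and 3979 in WB1 and at 3960, 4033 and 4019 in TD5. All 9 clone libraries were below the 3 of TPC1. The log2 fold change was −0.18 in D11 (adjusted p 0.0131), −0.20 in WB1 (adjusted p 0.00809) and, for TD5, −0.12 (adjusted p 0.135). The change in D11 did not pass after GC correction (−0.12, adjusted p 0.0662) or without TPC1 replicate 2 (−0.16, adjusted p 0.0577). The classical HLA genes are near-identical in places and highly variable, and how the counting treated reads shared between them was not given in the sources used here, so their levels are uncertain.

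Within a library, the ratio of B2M to the sum of the HLA-B, HLA-C and HLA-E scaled reads was 0.59 ± 0.01 in TPC1, 0.81 ± 0.02 in D11, 0.78 ± 0.06 in WB1 and, for TD5, 0.71 ± 0.05 (mean ± SD, n = 3). The lowest ratio in a clone, 0.656 in TD5 replicate 2, was above the highest in TPC1, 0.600. The ratio carries the dependence of B2M on the GC correction.

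TAPBP (ENSG00000231925, chr6:33299694-33314284, minus strand), the tapasin gene, was at 2659, 2678 and 3142 scaled reads in TPC1, at 2353, 2233 and 2305 in D11, at 2291, 2410 and 2495 in WB1 and at 2782, 2789 and 2878 in TD5. D11 and WB1 lay below all TPC1 libraries, and TD5 lay within their range. The log2 fold change was −0.29 ± 0.07 (SE) in D11 with an adjusted p of 0.00352, −0.23 ± 0.07 in WB1 with an adjusted p of 0.0138, and 0.00 in TD5 with an adjusted p of 0.996. The value in WB1 did not pass without TPC1 replicate 3 (−0.15, adjusted p 0.0828) or without WB1 replicate 1 (−0.20, adjusted p 0.0607).

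PSMB8 and PSMB9 encode interferon-inducible catalytic subunits that replace PSMB5 and PSMB6 in the immunoproteasome. PSMB8 (ENSG00000204264, chr6:32840717-32844679, minus strand) was at 940, 1075 and 945 scaled reads in TPC1, at 837, 809 and 824 in D11, at 956, 930 and 1025 in WB1 and at 892, 885 and 837 in TD5. D11 and TD5 lay below all TPC1 libraries. The log2 fold change was −0.25 in D11 (adjusted p 0.0121), −0.02 in WB1 (adjusted p 0.834) and, for TD5, −0.17 (adjusted p 0.119). Without TPC1 replicate 2 the value in D11 was −0.19 with an adjusted p of 0.0705.

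PSMB9 (ENSG00000240065, chr6:32844136-32859851, plus strand) was by far the lowest member. It was at 48, 44 and 33 scaled reads in TPC1, at 29, 35 and 49 in D11, at 49, 42 and 53 in WB1 and at 62, 54 and 61 in TD5. The TD5 libraries were above those of TPC1, with a log2 fold change of 0.36 ± 0.14 (SE) and an adjusted p of 0.107. Its value exceeded the floor of 3 reads in every library. Of its 3338 exon bases, PSMB9 shares 174 with the antisense gene PSMB8-AS1 and 139 with PSMB8. The strand setting of the counting was not given in the sources used here, so reads over the shared bases cannot be told apart.

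Levels can be compared between genes per length. Per kb of the MANE transcript in TPC1, B2M was highest at 319.8 ± 2.25 per 1000000, followed by HLA-B at 112 ± 1.58, HLA-E at 85.6 ± 3.10, HLA-C at 77.6 ± 3.62, PSMB8 at 43.9 ± 3.40, TAPBP at 40.9 ± 3.96, TAP2 at 22.0 ± 0.92, TAP1 at 11.0 ± 0.72 and PSMB9 at 2.05 ± 0.38 (SD, n = 3). PSMB8 and TAPBP did not differ beyond their spread in TPC1, and in TD5 neither did HLA-C at 79.6 ± 4.89 and HLA-E at 78.5 ± 0.76. Per kb of all annotated exons the order among the heavy chains changed, with HLA-E at 74.7, HLA-C at 47.7 and HLA-B at 37.3 per 1000000 in TPC1, while B2M stayed highest at 96.6 and PSMB9 lowest at 0.624.

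The constitutive subunits were the more abundant ones. In TPC1, PSMB5 was at 286 ± 3.90 per 1000000 per kb of the MANE transcript and PSMB6 at 209 ± 1.49, compared with 43.9 for PSMB8 and 2.05 for PSMB9. The ratio of PSMB8 to PSMB5 scaled reads was 0.16 ± 0.01 in TPC1, 0.17 ± 0.01 in D11, 0.19 ± 0.01 in WB1 and 0.17 ± 0.01 in TD5. The ratio of PSMB9 to PSMB6 was 0.0121 ± 0.0023 in TPC1, 0.0129 ± 0.0035 in D11, 0.0169 ± 0.0019 in WB1 and 0.0195 ± 0.0029 in TD5.

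**Figure D4:**
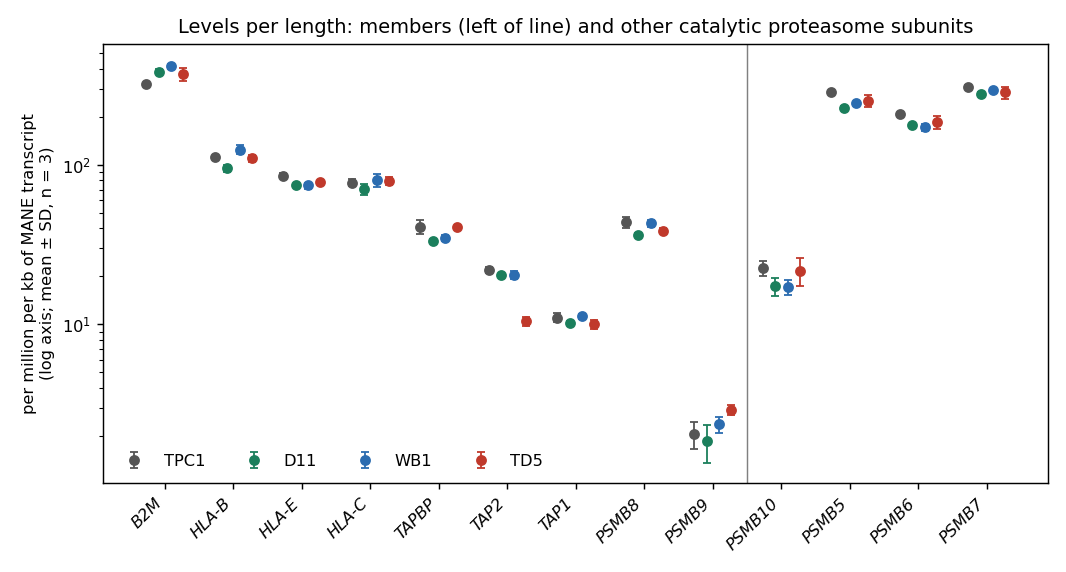
Level per 1000000 per kb of the MANE transcript (y axis, log scale, mean ± SD, n = 3 libraries) of the 9 members and of the proteasome subunits PSMB10, PSMB5, PSMB6 and PSMB7 in the 4 lines (colours). B2M lies highest among the members and PSMB9 lowest, and in TPC1 TAP2 is at 22.0 and TAP1 at 11.0, but in TD5 they are at 10.5 and 9.99.

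The clones were also compared with each other. These fold changes do not involve the TPC1 libraries, but their p-values come from the same fit over all 12 libraries. Of 27 combinations of a member and a pair of clones, 2 were called, both of them TAP2, with TD5 below D11 by a log2 fold change of −0.96 (adjusted p 1.56e-08) and below WB1 by −0.95 (adjusted p 3.91e-08). Of all tested genes, 2.85% were called between WB1 and D11, 3.99% between TD5 and D11 and 2.33% between TD5 and WB1. No member was called between WB1 and D11 by limma, with 3 (HLA-B, HLA-C and PSMB8) at an unadjusted p under 0.05.

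At an adjusted p under 0.05 with no minimum fold, 7 of the 27 passed. HLA-B was higher in WB1 than in D11 (log2 fold change 0.39, adjusted p 0.000417), the 1 member higher in that comparison and none lower, against 4.65% and 3.42% of all tested genes. In TD5 against D11, 3 members were higher and 1 lower, against 8.43% and 14.8%. The higher ones were HLA-B (0.21, adjusted p 0.0196), TAPBP (0.29, adjusted p 0.00467) and PSMB9 (0.47, adjusted p 0.0253). In TD5 against WB1, TAPBP was higher (0.23, adjusted p 0.0274) and TAP2 lower, against 4.52% and 9.12%. The value of HLA-B for TD5 against D11 did not pass without D11 replicate 2 (adjusted p 0.0993), D11 replicate 3 (0.0565) or TD5 replicate 3 (0.0513). The value of PSMB9 did not pass without D11 replicate 1 (0.111), D11 replicate 2 (0.0848) or TD5 replicate 1 (0.0710). The value of TAPBP for TD5 against WB1 did not pass without WB1 replicate 1 (0.110), WB1 replicate 2 (0.0775), TD5 replicate 1 (0.0526) or TD5 replicate 2 (0.0633).

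The other genes of the pathway were taken from 8 lists of 72 genes, of which 61 were tested. Against TPC1, 2 of 183 combinations of a gene and a clone were called, and 18 were higher and 31 lower at an adjusted p under 0.05 with no minimum fold. These counts stand beside the background shares given above for each clone.

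None of 13 regulators of class I transcription was called by limma in any clone, and those with an adjusted p under 0.05 were 2 higher and 2 lower ones in D11, 3 higher and 1 lower in WB1, and in TD5 only 1 lower. NLRC5, the class I transactivator, was at 508, 516 and 494 scaled reads in TPC1, at 453, 399 and 488 in D11, at 541, 525 and 586 in WB1 and at 482, 545 and 424 in TD5. Its log2 fold changes were −0.18, 0.12 and −0.07 in D11, WB1 and TD5, with adjusted p-values of 0.157, 0.363 and 0.695. IRF1, an interferon-induced activator, was at 465, 447 and 358 scaled reads in TPC1, at 404, 389 and 389 in D11, at 499, 429 and 515 in WB1 and at 566, 465 and 453 in TD5. Its log2 fold changes were −0.09, 0.18 and 0.22, with adjusted p-values of 0.532, 0.206 and 0.203.

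Of 12 interferon signalling genes, 1 was called, SOCS1 in WB1. At an adjusted p under 0.05, 1 rose and 1 fell in D11, against 19.9% and 13.4% of all tested genes. In WB1 5 rose, against 18.6%, and in TD5 1 rose, against 5.32%, and no others passed. SOCS1, an inhibitor of JAK kinases, was at 17, 17 and 27 scaled reads in TPC1 and at 37, 44 and 62 in WB1, without overlap. Its log2 fold change was 0.74 with an adjusted p of 0.00214, and it depended on the pseudocount, from 1.15 with 0.1 to 0.34 with 4.

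None of the 8 peptide loading and trimming genes, of the 5 genes of the immunoproteasome and its activator or of the 3 constitutive catalytic subunits was called by limma. At an adjusted p under 0.05, 2 loading genes were lower in D11, 1 was higher and 2 were lower in WB1, and in TD5 only 1 was lower. PSMB10, the third inducible subunit, was at 424, 406 and 495 scaled reads in TPC1, at 375, 355 and 290 in D11, at 328, 303 and 376 in WB1 and at 356, 520 and 398 in TD5. D11 and WB1 lay below TPC1, with log2 fold changes of −0.36 (adjusted p 0.0408) and −0.38 (adjusted p 0.0362), and TD5 overlapped with TPC1 at −0.07 (adjusted p 0.796). The values in D11 and WB1 did not pass with a replicate block (adjusted p 0.0621 and 0.0566). They also did not pass without TPC1 replicate 1 (0.0608 and 0.0570) or TPC1 replicate 3 (0.172 and 0.159). For D11 the same held without D11 replicate 2 (0.0675) or replicate 3 (0.189), and for WB1 without WB1 replicate 1 (0.0925) or replicate 2 (0.139).

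PSMB5, the constitutive counterpart of PSMB8, was at 5950, 6073 and 5918 scaled reads in TPC1, at 4840, 4846 and 4650 in D11, at 5164, 5073 and 4998 in WB1 and at 5281, 5700 and 4778 in TD5. All 9 clone libraries were below TPC1. The log2 fold changes were −0.32 in D11 (adjusted p 0.000917), −0.24 in WB1 (adjusted p 0.00714) and, for TD5, −0.19 (adjusted p 0.0443), and the last did not pass when any library other than TD5 replicate 2 was left out.

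Of the 7 tested other class I heavy chains and class I-like genes, none was called by limma, and 2 were lower in D11 at an adjusted p under 0.05. Of 10 class II genes, which present peptides to CD4 T cells, HLA-DMA alone was tested, and the other 9 reached at most 10 scaled reads in any library. Of 13 genes for ligands of NK and T cell receptors, 12 were tested and 1 was called against TPC1, PVR in D11. PVR, a ligand of TIGIT and DNAM-1, was at 7832, 7453 and 7634 scaled reads in TPC1 and at 4489, 4447 and 4297 in D11, with a log2 fold change of −0.79 and an adjusted p of 6.02e-08.

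Of the same ligands 4 were called between TD5 and D11, where 3.99% of all tested genes were, and they are named after their values were seen. CD274, which encodes PD-L1, was at 140, 127 and 132 scaled reads in D11 and at 40, 67 and 57 in TD5, with a log2 fold change of −1.05 (adjusted p 0.000211). PDCD1LG2, which encodes PD-L2, was lower in TD5 at −0.73 (adjusted p 0.000232), as was ULBP1, an NKG2D ligand, at −0.80 (adjusted p 0.000169), while PVR was higher at 0.64 (adjusted p 1.02e-06). With a pseudocount of 4, PDCD1LG2 was at −0.53 and ULBP1 at −0.52, under 1.5-fold, and CD274 was at −0.67. Of the other pairs of clones, WB1 was below D11 in CD274 (−0.66, adjusted p 0.0130) and TD5 below WB1 in PDCD1LG2 (−0.61, adjusted p 0.00191), each the single ligand called there, against 2.85% and 2.33% of all tested genes. Against TPC1, CD274 was at 0.54 in D11 and −0.51 in TD5, with adjusted p-values of 0.0159 and 0.0418, and both were under 1.5-fold.

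**Figure D5:**
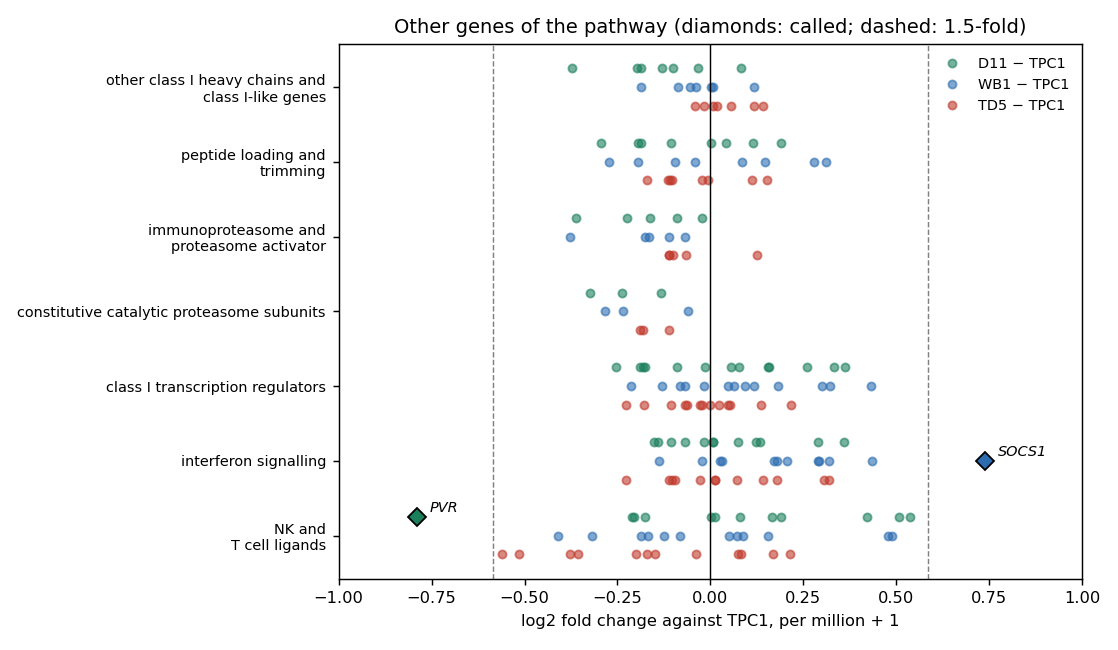
Log2 fold change against TPC1 (x axis) of the tested genes of 7 lists of the pathway in D11, WB1 and TD5 (colours, 1 point a gene), with dashed lines at 1.5-fold. Diamonds mark the 2 called values, SOCS1 in WB1 at 0.74 and PVR in D11 at −0.79, and all other points lie within the dashed lines.

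As a description over the 12 libraries, which share lines and depth, members were correlated on the log2 scale. The 36 pairs had Pearson's r from −0.83 for HLA-E and B2M to 0.84 for HLA-B and HLA-C, with a median of 0.20. HLA-B had the highest r with the mean of the 9 standardized members, 0.92, followed by PSMB8 at 0.85 and HLA-C at 0.83, while TAP2 was at 0.09 and B2M at −0.05. Among the 5 tested genes outside the set most like that mean over the 12 libraries were SYBU, DGKG, FAM214B and SH3PXD2B, with r of 0.94, 0.93, 0.93 and 0.93. Like HLA-B, each of these 4 had its lowest mean in D11, for example 22.3 scaled reads of SYBU against 51.0 in TPC1. They were picked for their likeness to a mean that holds HLA-B, so this is not a separate observation. SYBU, at 21, 16 and 30 scaled reads in D11, was near the limit for testing there.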

How the data were processed

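RNA-seq was analysed for 12 libraries, 3 each of TPC1, D11, WB1 and TD5, grouped by their labels. The authors prepared mRNA libraries with a stranded kit, aligned the read pairs to GRCh38 using STAR 2.5.3a, counted them per Ensembl gene with HTSeq 0.9.1 and scaled them to 20000000 aligned reads. Whole numbers, rounded up from these reads, are what the authors deposited, and they were handled as a score, so the count test of the authors was not used. Library sums were 20009833 to 20014191, and no libraries were identical.

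Values per 1000000 were fitted as log2(value + 1) by limma 3.58.1 (R 4.3.3), using a mean-variance trend and a mean for each line. Genes needed 1 per 1000000 in 3 libraries, and calls an adjusted p under 0.05 and 1.5-fold. Positions and lengths came from GENCODE for GRCh38, promoters from RefSeq, and figures from matplotlib 3.10.9 in Python 3.11.15. A GC content, that of the longest annotated transcript, was found for 99.1% of the tested genes.

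The members and lists were chosen with earlier results of these data known, and the promoter motifs after the windows were read. Named are the 9 members, DICER1, called list genes (at most 4 a list), NLRC5, IRF1, PSMB10, PSMB5 and genes among the 5 most like the member mean. Some genes under this rule are not reported here. Genes outside this rule were named after their values were seen. Alternatives were other pseudocounts (0.1 and 4), filters, fold limits, scaling by median of ratios, the 2 lines compared alone, a GC correction (loess, span 0.5), a replicate block and leaving out each library. The block with GC correction was added after seeing the data. Same-numbered libraries of D11 and TD5 deviated from their line means together (r = 0.11, 0.17 and 0.35). A fit with a block for the replicate number over all 12 libraries was therefore compared with the reported values, which are without the block. The block thus also covered lines that did not deviate together, such as TPC1 and D11 (r = −0.19, −0.13 and −0.13). No source states a pairing, which is uncertain, and no other pair of lines met this criterion.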

Additional observations from a re-analysis of the deposited data

Results flagged for a closer look

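The values here were marked because the change against TPC1, whose libraries both clones share, differed between the clones in a direct test (limma, adjusted p under 0.05). TAP2 differed between TD5 and D11 by −0.96 (adjusted p 1.56e-08) and between TD5 and WB1 by −0.95 (adjusted p 3.91e-08) on the log2 scale. The 3 TD5 libraries were below all others in both. HLA-B differed by 0.39 between WB1 and D11 (adjusted p 0.000417) and by 0.21 between TD5 and D11 (adjusted p 0.0196), with D11 the lowest line. TAPBP differed by 0.29 between TD5 and D11 (adjusted p 0.00467) and by 0.23 between TD5 and WB1 (adjusted p 0.0274), with TD5 close to TPC1. PSMB9 differed by 0.47 between TD5 and D11 (adjusted p 0.0253), at 29 to 62 scaled reads. The causes of these differences were not tested.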

How the results depend on the processing

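TAP2 in TD5 was the called member against TPC1 in each alternative that kept the 1.5-fold limit, and with a limit of 2-fold 1 member was still called. With no minimum fold the count was 10, and between clones it was 7, against 0 at 2-fold. Among the other pathway genes 2 calls were made, 6 with a pseudocount of 0.1, 1 with a pseudocount of 4, 1 with a filter at 5 per 1000000, 49 with no minimum fold and 0 at 2-fold. Leaving out a library gave 2 to 4 of these calls, and 4 came without TPC1 replicate 2 or without TPC1 replicate 3. For the members' counts, leaving out a library gave 1 against TPC1, 2 to 3 between clones and 5 to 7 among the 4 lines. The cause was not tested where a count moved, other than through the limit itself. TAP2 in TD5 passed the adjusted threshold against all 3 other lines in all 21 alternatives. The other single genes were followed only where they passed the adjusted threshold in the reported fit. Of their values in the alternatives, 533 still passed it, 74 no longer did, and none changed sign. Values that did not pass in the reported fit were not followed.

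The replicate block left 1 member called against TPC1 and 2 between clones, and the change of B2M in TD5, 0.21, then had an adjusted p of 0.0576. For TD5 against D11, whose same-numbered libraries deviated together, it changed no call of a member. Values under 5 per 1000000, such as those of PSMB9 and SOCS1, were limited by depth and by the pseudocount. Because reads were scaled and rounded up before deposit, no count model was fitted.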
